A study of Mus musculus with 17 samples.

Results

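The 54 genes described here are the interleukins and interleukin receptor genes of the mouse lung outside the IL-12, IL-1 and IL-18 core genes. They were taken from the 18262 genes of the deposited expression table as all symbols made of Il followed directly by a digit (70 genes), less 16 named genes of the IL-12, IL-23, IL-27, IL-1, IL-18 and IL-33 systems. The rule uses names and no measured value. The set holds the shared cytokine receptor chains, the ligands that pair with them, the IL-10 and IL-17 families and a few genes that carry an interleukin symbol for other reasons, such as the amino acid oxidase gene Il4i1.

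Interleukins are secreted proteins through which leukocytes, and in the lung also epithelial and stromal cells, signal to each other. Most of the receptors in the set have no enzyme activity of their own: a ligand-specific chain joins a shared chain (Il2rg for the IL-2 group, Il6st for the IL-6 group, Il10rb for the IL-10 group), and Janus kinases bound to the chains phosphorylate STAT transcription factors. The IL-17 and IL-1 family receptors use adaptor proteins instead. Transcripts of ligands are usually rare in a whole organ, since few cells make them, whereas receptor chains are carried by whole cell classes.

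Total RNA of 16 lungs of C57BL/6 mice was sequenced, 4 lungs in each of 4 groups, together with 1 library of the injected cells. Naive untreated mice carried no tumor and received no cells. Naive mice of the second group received 8000000 IL12-GEMy cells (genetically engineered myeloid cells that secrete IL-12) by vein and their lungs were taken 3 days later. Tumor-bearing untreated mice had 500000 M3-9-M cells, a mouse rhabdomyosarcoma line labelled with firefly luciferase and mCherry, placed in the gastrocnemius muscle, and lungs were taken on day 15. The last group carried the same tumor, received 8000000 IL12-GEMy cells on day 12 and was sampled on day 15. The cell product was bone marrow transduced with a lentivirus and kept with SCF, FLT3L and IL-6. No group received cells without IL-12, so the cells and the IL-12 they secrete cannot be told apart in these lungs. The labels number the samples of a group and do not say whether they came from separate mice, so the p-values cover the spread among libraries of a group, which may be technical. For tumor-bearing mice the sample descriptions hold a 1 in every untreated and a 2 in every treated lung, and what that number marks cannot be told apart from treatment. A letter code follows it (such as BL or NC) that differs between the lungs of a group, and the labels do not give its meaning.

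The libraries held 27566855 to 36815077 assigned reads in lungs and 31111378 in the cell product. Correlations between lungs of a group were 0.986 to 0.997 on the log2 scale. The 6 alveolar epithelial markers summed to 17200 to 27763 reads per 1000000 (RPM) in lungs and 6.98 in the cell product, and the 8 monocyte and macrophage markers to 376 to 1305 in lungs and 3053 in the product, so both tissues matched their labels. Hemoglobin transcripts took 5.41% of reads in tumor untreated replicate 4 and at most 2.41% in the other lungs.

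Levels between genes were compared per length, as FPKM over the genomic span, a scale on which genes with long introns read low. In naive untreated lungs Il2rg, the gamma chain shared by the receptors for IL-2, IL-4, IL-7, IL-9, IL-15 and IL-21, was highest (21.3 ± 1.87 FPKM, SD, n = 4). The gp130 gene Il6st (13.9 ± 0.705), Il4ra (7.42 ± 0.845), Il11ra1 (6.29 ± 0.365) and Il10rb (5.16 ± 0.242) followed. Receptor chains thus led the set, and the ligands lay far lower: Il10 was at 0.0101 ± 0.00363 FPKM, Il6 at 0.0201 ± 0.0174 and Il15 at 0.0492 ± 0.00343. Il34, a ligand of the CSF1 receptor, stood at 0.239 ± 0.0195 FPKM, and Il16, a chemoattractant of CD4+ cells, at 0.672 ± 0.109 with a span that is long in introns.

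Because many members were low, all tests used RPM, as log2(RPM + 0.5), in 1 limma fit of the 16 lungs. A gene was tested if it reached 0.1 RPM in at least 4 lungs, which 17192 genes did. Of the 54 members 47 passed and 7 did not (Il17b, Il17c, Il17f, Il1rapl1, Il2, Il21 and Il24). A call is a Benjamini-Hochberg adjusted p under 0.05 over all tested genes. Fold changes on this scale understate the change of genes near or below 0.5 RPM, so ratios of mean RPM are given beside them. In bulk lung, fewer cells of a type and less RNA per cell cannot be told apart.

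A tumor in the leg raised 18 of the 47 tested members in untreated lungs and lowered 7, where 13.6% of all tested genes rose and 23.2% fell. Under median-of-ratios scaling 20 members were higher and 4 lower, and with hemoglobin as a covariate 15 and 4. The median log2 fold change of the members was 0.19, against -0.08 for all tested genes. IL12-GEMy in naive mice raised 8 members and lowered 0, where 4.53% of all genes rose and 1.38% fell, with medians of 0.02 and -0.03. The same cells in tumor-bearing mice raised 3 and lowered 6 (2.22% and 2.57% of all genes), with medians of -0.08 and -0.02, and 3 and 3 under median-of-ratios scaling. Between the 2 groups that received cells, the tumor raised 6 members and lowered 0 (3.48% and 5.68%), with medians of 0.06 and -0.06. The change after cells differed with tumor status for 7 members, 1 upward and 6 downward (0.82% and 3.37% of all genes), with medians of -0.16 and 0.01. Under median-of-ratios scaling the split of all genes was 3147 higher and 2505 lower with a tumor in untreated mice (2339 and 3987 without it), and 830 higher and 472 lower among lungs with cells (599 and 976 without it, 679 and 695 under quantile normalization). These comparisons share control lungs with each other. Over the 4 comparisons of 2 groups, Il10 was called in each, 5 members in 3, 10 in 2, 9 in 1 and 22 in none.

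**Figure D1:**
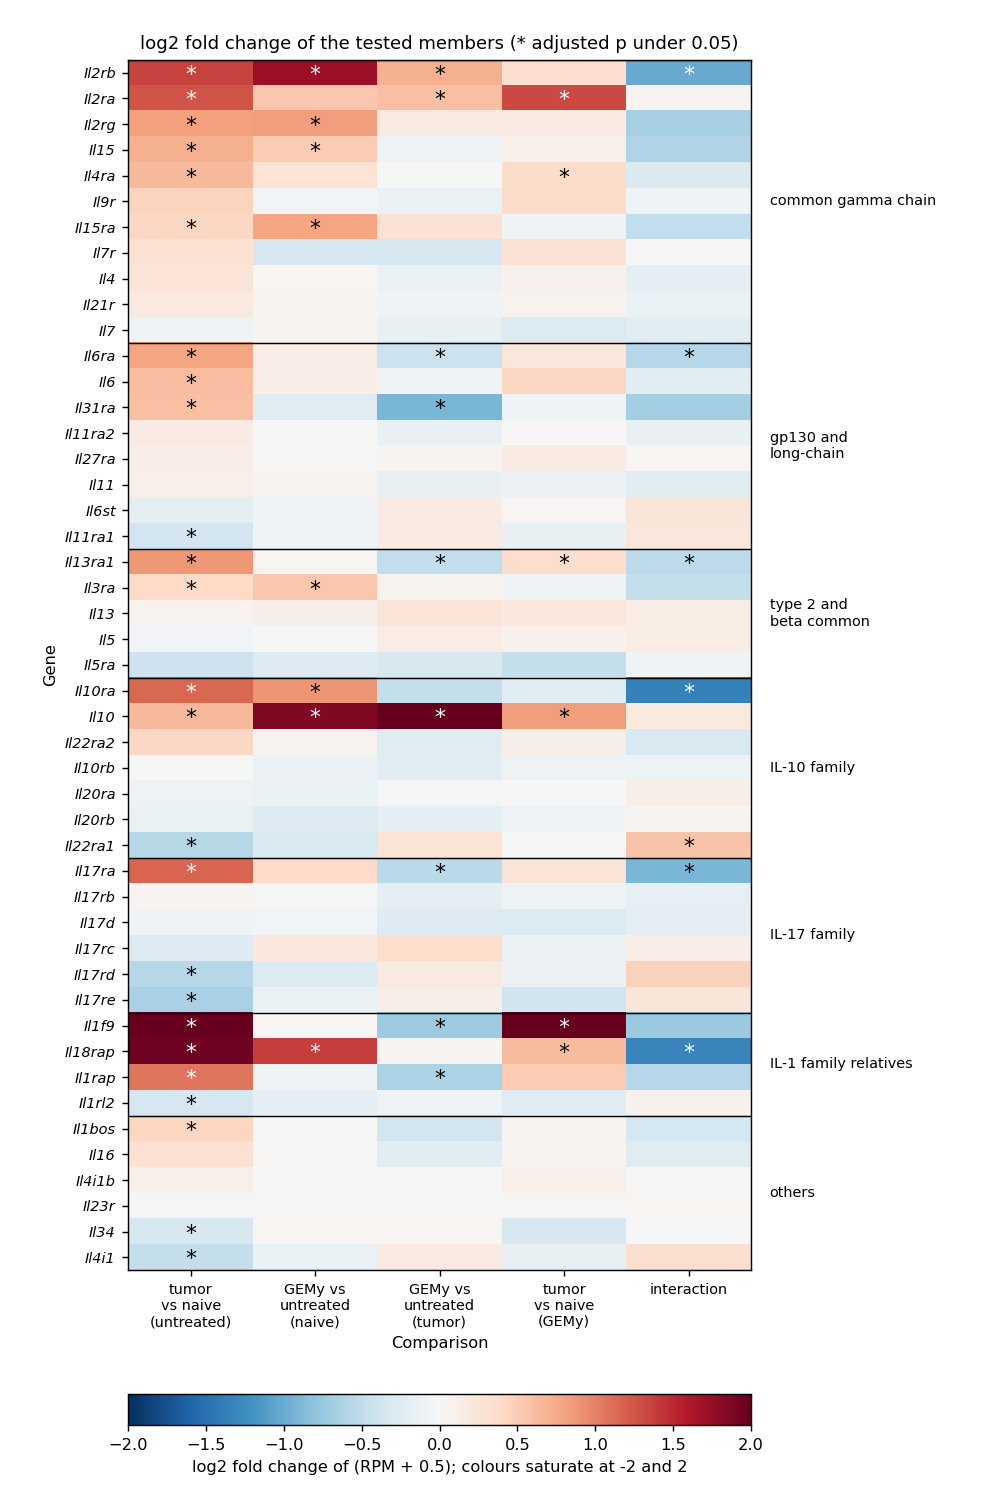
Fold changes of the 47 tested members (rows, grouped by receptor family) in the 4 comparisons of 2 groups and the interaction (columns). Colour gives the log2 fold change of RPM + 0.5, red for higher and blue for lower, and asterisks mark an adjusted p under 0.05. The column for tumor in untreated lungs holds 25 asterisks, and that for IL12-GEMy in naive lungs holds 8, each on red.

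Among the genes of the gamma chain group, Il2rb and Il2ra had the largest log2 fold changes with a tumor, and Il2rb after cells in naive mice. Il2rb (chromosome 15, 78480549 to 78495066, minus strand, mm10), the beta chain through which both cytokines signal, was at 23.0, 25.5, 27.4 and 32.2 RPM in naive untreated lungs and 93.4, 90.5, 65.7 and 115 RPM in naive lungs given IL12-GEMy. In tumor-bearing mice it was at 44.9, 76.6, 85.7 and 77.3 RPM untreated and 108, 117, 115 and 115 RPM with IL12-GEMy. All lungs of the 3 other groups lay above all naive untreated lungs, and tumor lungs with cells lay above tumor lungs without. The rise was 3.37-fold after cells in naive mice (log2 fold change 1.72, SE 0.18, adjusted p = 5.13e-06), 2.63-fold with a tumor (log2 fold change 1.35, SE 0.18, adjusted p = 2.92e-05) and 1.59-fold after cells in tumor-bearing mice (log2 fold change 0.71, SE 0.18, adjusted p = 0.0286). That last call was lost without tumor GEMy replicate 2 (adjusted p = 0.0808), 3 (0.0646) or 4 (0.0583) and in a fit of the 8 compared lungs alone (0.0752).

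The response of Il2rb to cells was smaller with a tumor than without (interaction -1.01, SE 0.25, adjusted p = 0.0298). Leaving out naive untreated replicate 1 or 2, naive GEMy replicate 1, 2 or 4, tumor untreated replicate 2, 3 or 4, or tumor GEMy replicate 1 or 2 lost this call (adjusted p = 0.0518 to 0.0733).

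The high-affinity alpha chain gene Il2ra (chromosome 2, 11642792 to 11693194, plus strand) followed another order. It was at 2.08, 2.56, 3.87 and 2.52 RPM in naive untreated, 3.70, 4.60, 3.66 and 4.72 RPM in naive GEMy, 5.97, 6.16, 7.94 and 8.97 RPM in tumor untreated and 11.8, 11.9, 12.0 and 8.84 RPM in tumor GEMy lungs. Each tumor-bearing lung exceeded each naive one. The tumor raised it 2.63-fold in untreated mice (log2 fold change 1.26, SE 0.16, adjusted p = 1.55e-05) and 2.68-fold in mice given cells (log2 fold change 1.32, SE 0.16, adjusted p = 7.26e-05). After cells it rose 1.54-fold in tumor-bearing mice, with groups that overlap at 8.97 and 8.84 RPM, and at an adjusted p of 0.0421. This call was lost in 13 of 27 recomputations, among them without naive untreated replicate 2 or 4, naive GEMy replicate 1 or 2, tumor untreated replicate 1, 2 or 3, or tumor GEMy replicate 1, 2 or 3 (adjusted p = 0.0506 to 0.131). In naive mice the change of 0.54 did not pass (adjusted p = 0.0596), and it passed without naive untreated replicate 3 (0.0116), tumor untreated replicate 1 (0.0438) or 4 (0.0418), or tumor GEMy replicate 4 (0.0465).

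Il2rg (chromosome X, 101264385 to 101268255, minus strand) was at 73.1, 83.7, 81.6 and 90.7 RPM in naive untreated, 161, 139, 127 and 163 RPM in naive GEMy, 101, 144, 167 and 186 RPM in tumor untreated and 154, 174, 169 and 159.8 RPM in tumor GEMy lungs. Naive untreated lungs lay below all others. The gene rose 1.79-fold after cells in naive mice (log2 0.83, adjusted p = 0.000744) and 1.81-fold with a tumor (log2 0.82, adjusted p = 0.000237), while the change after cells in tumor-bearing mice did not pass (0.17, adjusted p = 0.590). The interaction of -0.66 did not pass (adjusted p = 0.0655) but passed without tumor untreated replicate 1 (-0.84, adjusted p = 0.000744), whose level of 101 RPM was the lowest of its group.

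IL-15 is presented to neighbouring cells by its own alpha chain, and both genes rose in the same 2 comparisons. Il15ra (chromosome 2, 11705293 to 11733985, plus strand) was at 8.95, 9.24, 8.93 and 7.47 RPM in naive untreated, 15.9, 12.7, 16.4 and 16.2 RPM in naive GEMy, 10.1, 11.0, 12.4 and 13.6 RPM in tumor untreated and 14.3, 14.3, 16.8 and 12.6 RPM in tumor GEMy lungs. Its rise was 1.77-fold after cells in naive mice (log2 0.78, adjusted p = 0.000154) and 1.36-fold with a tumor (log2 0.42, adjusted p = 0.00807), both without overlap. Il15 (chromosome 8, 82331624 to 82402586, minus strand) was at 3.22, 3.61, 3.76 and 3.36 RPM in naive untreated, 5.78, 4.67, 4.74 and 5.55 RPM in naive GEMy, 5.34, 5.74, 5.99 and 7.06 RPM in tumor untreated and 4.89, 6.57, 4.87 and 6.31 RPM in tumor GEMy lungs. Naive untreated lungs were again the lowest. It rose 1.73-fold with a tumor (log2 0.71, adjusted p = 0.000222) and 1.49-fold after cells in naive mice (log2 0.51, adjusted p = 0.0131). The call after cells was lost without naive GEMy replicate 1 (0.0558) or 4 (0.0524). In tumor-bearing mice neither difference after cells passed (log2 -0.09 for Il15 with adjusted p = 0.769, and 0.29 for Il15ra with adjusted p = 0.170). The interactions of Il15 (-0.60, adjusted p = 0.0515) and Il15ra (-0.49, adjusted p = 0.0968) missed the threshold. That of Il15 passed without tumor untreated replicate 1 (0.0228) or tumor GEMy replicate 2 (0.0384) or 4 (0.0406), and that of Il15ra without naive GEMy replicate 2 (0.0481) or tumor untreated replicate 1 (0.0323).

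Of the 13 gamma chain group genes 11 were tested: 6 rose with a tumor (13.6% of all tested genes did), 4 after cells in naive mice (4.53%) and 2 after cells in tumor-bearing mice (2.22%), and 0 fell. The lymphocyte survival pair stayed without a call. Il7 was at 3.14 ± 0.457 RPM in naive untreated and 2.62 ± 0.390 RPM in tumor GEMy lungs (lungs in all 2.20 to 4.20 RPM). Il7r was at 17.1 ± 3.56, 13.4 ± 2.93, 21.5 ± 5.48 and 16.5 ± 2.13 RPM in naive untreated, naive GEMy, tumor untreated and tumor GEMy lungs. Its differences after cells were -0.34 in naive mice (adjusted p = 0.306) and -0.35 in tumor-bearing mice (adjusted p = 0.301). Il9r was not called, and passed for the tumor in untreated mice without naive untreated replicate 3 (0.0234) or tumor untreated replicate 2 (0.0424). Il21r, the IL-21 receptor, spanned 12.7 to 28.5 RPM over the 16 lungs and was not called. The T cell growth factor Il2 had 3, 1, 4 and 5 reads over the 4 libraries of naive untreated, naive GEMy, tumor untreated and tumor GEMy lungs, and Il21 had 1, 1, 5 and 19. Both ligands were thus at or near the limit of 3 reads in most groups, and Il21 reads were most numerous in tumor lungs with cells.

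Markers of NK cells, which carry Il2rb at high levels, moved with Il2rb in part. All 8 of 8 NK markers rose with a tumor and 7 of 8 after cells in naive mice, and their summed level was 61.2 to 94.7 RPM in naive untreated, 273 to 461 in naive GEMy, 134 to 302 in tumor untreated and 341 to 549 in tumor GEMy lungs. After cells in tumor-bearing mice 2 of 8 rose, and 5 of 8 had a negative interaction (median -1.31), as did Il2rb and Il18rap. Among lungs with cells 0 of 8 were called with a tumor (median -0.0012), where Il2ra and Il18rap (log2 0.63) rose. Of 10 T cell markers 6 rose with a tumor in untreated mice and 1 after cells in naive mice, with sums of 125 to 177, 140 to 181, 146 to 253 and 202 to 229.8 RPM in the same order. With a tumor among lungs with cells 6 of these 10 rose (median log2 0.60), and 0 were called after cells in tumor-bearing mice. No marker of either list was at 0 throughout a lung group. Their part in the receptor changes was not tested.

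IL-10, a cytokine that restrains macrophages and T cells, had the largest log2 fold change of any tested member after IL12-GEMy, in naive and in tumor-bearing mice. Il10 (chromosome 1, 131019845 to 131024970, plus strand) was at 0.0358, 0.0682, 0.0352 and 0.0673 RPM in naive untreated lungs, which is 1 or 2 reads per library. In naive lungs with cells it was at 1.68, 1.01, 1.41 and 1.99 RPM, in tumor untreated lungs at 0.302, 0.260, 0.472 and 0.431 RPM and in tumor lungs with cells at 2.82, 2.97, 3.96 and 2.56 RPM. The 4 groups did not overlap, and the order ran from naive untreated through tumor untreated and naive GEMy to tumor GEMy. Cells raised Il10 29.5-fold in naive mice (log2 fold change 1.85, SE 0.15, adjusted p = 1.55e-07, from 6 to 185 reads over the group) and 8.42-fold in tumor-bearing mice (log2 fold change 2.04, SE 0.15, adjusted p = 5.64e-07, from 45 to 402 reads). Both calls held in every recomputation made. The interaction did not pass (0.19, SE 0.21, adjusted p = 0.697).

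The tumor raised Il10 as well, 7.09-fold in untreated mice (log2 0.64, adjusted p = 0.00289) and 2.02-fold in mice with cells (log2 0.83, adjusted p = 0.00244). The first call was lost with an added 2 RPM (adjusted p = 0.0574) and on the FPKM scale (0.0815). The second was lost with hemoglobin as a covariate (0.0512). Il10 remained a rare transcript: its highest lung, tumor GEMy replicate 3, held 3.96 RPM.

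The ligand-binding chain Il10ra (chromosome 9, 45253837 to 45269149, minus strand) was called in only 2 of the 4 comparisons in which its ligand rose. It was at 33.9, 43.8, 46.0 and 49.5 RPM in naive untreated, 80.4, 74.7, 75.5 and 87.8 RPM in naive GEMy, 65.2, 98.6, 109.7 and 119 RPM in tumor untreated and 58.7, 73.8, 61.6 and 84.4 RPM in tumor GEMy lungs. Naive untreated lungs lay below the other 3 groups, which overlapped each other in part. The gene rose 2.26-fold with a tumor (log2 fold change 1.15, SE 0.16, adjusted p = 4.73e-05) and 1.84-fold after cells in naive mice (log2 fold change 0.88, SE 0.16, adjusted p = 0.00209). In tumor-bearing mice the change after cells was -0.47 (adjusted p = 0.117) and did not pass, although without tumor untreated replicate 1, the lowest of its group, it was -0.65 (adjusted p = 0.00505). The interaction was -1.35 (SE 0.23, adjusted p = 0.00284) and held in every recomputation. The second chain, Il10rb, was even across groups, with means of 101, 93.8, 101 and 87.9 RPM and no call.

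Other genes of the IL-10 family belong to receptors for IL-20, IL-22 and IL-24. Il22ra1 (chromosome 4, 135728159 to 135755383, plus strand), the epithelial IL-22 receptor chain, was at 8.95, 8.83, 7.49 and 8.45 RPM in naive untreated, 7.06, 7.15, 6.50 and 6.26 RPM in naive GEMy, 6.49, 5.90, 4.75 and 5.05 RPM in tumor untreated and 6.93, 6.87, 6.84 and 6.41 RPM in tumor GEMy lungs. All lungs without a tumor or cells exceeded all other lungs. The fall with a tumor was 1.52-fold in mean RPM (log2 fold change -0.57, SE 0.10, adjusted p = 0.000316). The interaction had the opposite sign to that of the other members called (0.57, adjusted p = 0.0234), and was lost without naive untreated replicate 1 (0.0617) or 2 (0.0586), naive GEMy replicate 4 (0.0601) or tumor untreated replicate 3 (0.0558). Il24 had 0 reads in naive untreated, 1 in naive GEMy, 19 in tumor untreated and 4 in tumor GEMy lungs. With the naive untreated lungs set at the limit of 3 reads per group, the ratio of tumor untreated to naive untreated lungs was 5.90. It allows for counting error in the naive untreated lungs and not in the 19 reads, so it is no lower bound. Replicate 4 held 11 of the 19 reads, and without it, an alternative chosen after seeing the data, the same ratio was 3.36. After cells in tumor-bearing mice the difference of Il22ra1 (0.27, adjusted p = 0.141) passed without tumor untreated replicate 1 (0.0425). Il20ra, Il20rb and Il22ra2 were not called in any comparison.

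**Figure D2:**
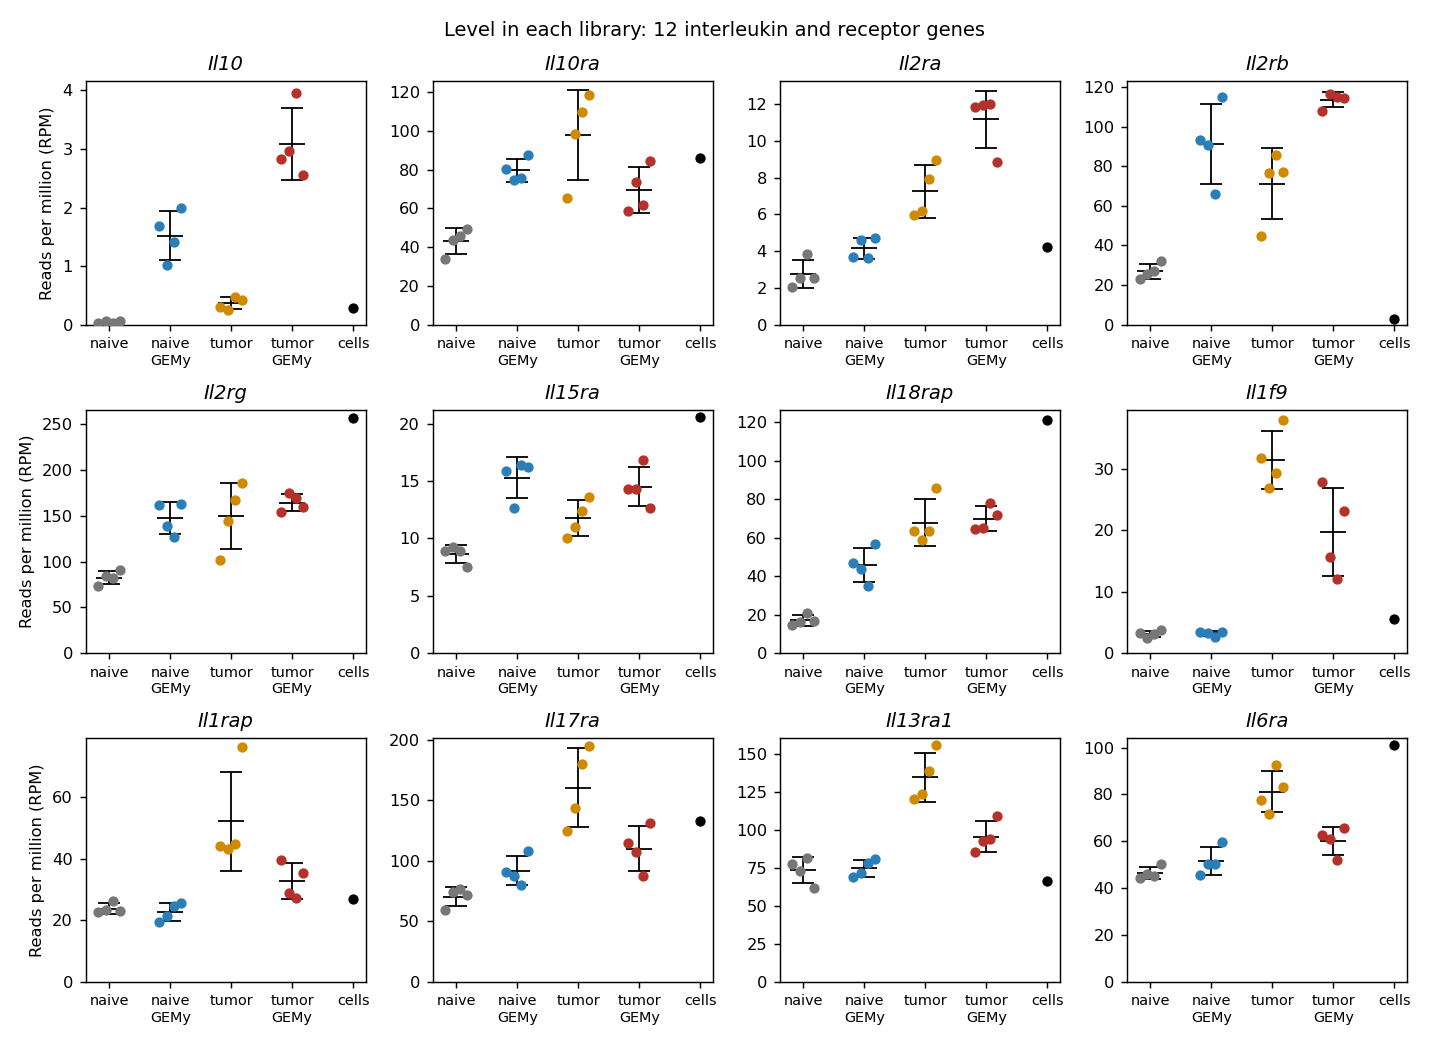
Level of 12 genes in each library, in RPM (linear axes from 0), for naive untreated, naive IL12-GEMy, tumor untreated and tumor IL12-GEMy lungs and the cell product. Points are libraries, and bars give the mean and SD of 4 lungs. Il10 is lowest in naive untreated lungs and highest in tumor lungs with cells (2.56 to 3.96 RPM), whereas among lungs Il17ra, Il13ra1 and Il6ra have their highest means in untreated tumor lungs.

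Among relatives of the IL-1 family, the gene of IL-36 gamma had the largest log2 fold change of any tested member with a tumor. Il1f9 (chromosome 2, 24186476 to 24193567, plus strand) was at 3.36, 2.52, 3.13 and 3.73 RPM in naive untreated, 3.53, 3.32, 2.60 and 3.43 RPM in naive GEMy, 31.9, 27.0, 29.4 and 37.9 RPM in tumor untreated and 28.0, 15.7, 12.2 and 23.2 RPM in tumor GEMy lungs. All tumor-bearing lungs exceeded all naive lungs, and the 2 naive groups overlapped. The tumor raised it 9.89-fold in untreated mice (log2 fold change 3.12, SE 0.20, adjusted p = 4.96e-09) and 6.14-fold in mice with cells (log2 fold change 2.38, SE 0.20, adjusted p = 8.89e-07). After cells the difference in naive mice did not pass (0.02, adjusted p = 0.978). In tumor-bearing mice it fell 1.60-fold with groups that overlap (log2 fold change -0.72, SE 0.20, adjusted p = 0.0408). This last call was lost in 16 of 28 recomputations, among them without naive untreated replicate 1 or 3, naive GEMy replicate 1, 2 or 4, any tumor untreated replicate, or tumor GEMy replicate 2 or 3 (adjusted p = 0.0519 to 0.139), and in a fit of the 8 compared lungs (0.195). The interaction of -0.74 did not pass (adjusted p = 0.160), and passed without tumor GEMy replicate 1 (-0.92, adjusted p = 0.0398). Its receptor Il1rl2 went from 17.6 ± 1.87 RPM in naive untreated to 13.8 ± 1.35 RPM in tumor untreated lungs and fell (-0.34, adjusted p = 0.0206). Without naive untreated replicate 1 or 3 or tumor untreated replicate 4 that fall did not pass (adjusted p = 0.0599 to 0.0764), nor did it under median-of-ratios scaling (0.0542) or with hemoglobin as a covariate (0.133).

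Il18rap (chromosome 1, 40515362 to 40551705, plus strand), the signalling chain of the IL-18 receptor on NK and T cells, was at 14.6, 16.4, 21.1 and 16.5 RPM in naive untreated and 46.8, 43.9, 35.1 and 56.5 RPM in naive GEMy lungs. Tumor untreated lungs held 63.6, 58.7, 63.2 and 85.7 RPM and tumor GEMy lungs 64.6, 65.1, 78.2 and 71.5 RPM. Naive untreated lungs were the lowest, naive lungs with cells intermediate, and the 2 tumor groups overlapped at the top. The rise was 3.95-fold with a tumor (log2 fold change 1.95, SE 0.14, adjusted p = 2.11e-08) and 2.66-fold after cells in naive mice (log2 fold change 1.38, SE 0.14, adjusted p = 2.53e-06). In tumor-bearing mice the difference after cells was 0.05 (adjusted p = 0.899), and the interaction was -1.32 (adjusted p = 0.00125), a call that held in every recomputation. With cells, tumor lungs still exceeded naive lungs 1.53-fold (log2 0.63, adjusted p = 0.0111), which was lost with hemoglobin as a covariate (0.158).

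Il1rap (chromosome 16, 26581705 to 26730128, plus strand) encodes the accessory chain shared by the receptors for IL-1, IL-33 and IL-36. It was at 22.7, 23.2, 26.3 and 23.0 RPM in naive untreated, 19.4, 21.3, 24.6 and 25.7 RPM in naive GEMy, 44.1, 43.3, 44.9 and 76.5 RPM in tumor untreated and 39.7, 28.9, 27.3 and 35.4 RPM in tumor GEMy lungs. Untreated tumor lungs were above all others, with replicate 4 far above the rest of its group. The gene rose 2.19-fold with a tumor (log2 1.07, adjusted p = 7.13e-05) and fell 1.59-fold after cells in tumor-bearing mice (log2 -0.63, adjusted p = 0.0266). The fall was lost without tumor GEMy replicate 2 (0.0942) or 3 (0.0850), under 2 other scalings (0.0512 and 0.0511) and in a fit of the 8 compared lungs (0.153). With cells, tumor lungs did not differ past the threshold from naive lungs (0.51, adjusted p = 0.0517), but did without tumor untreated replicate 1 (0.0431) or 4 (0.00673) or tumor GEMy replicate 3 (0.0383).

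Promoter letters are shown for 4 members, chosen after their values and matches were seen: Il1f9 and Il31ra, which fell after IL12-GEMy in tumor-bearing mice and whose windows hold the motif below, and Il18rap and Il2rg, which rose after IL12-GEMy in naive mice and whose windows do not. The windows are the 250 bases before the first base of the gene in the RefSeq table (GRCm38.p6, the same assembly as mm10), which held 42 of the 54 members in 48 windows. Lower case is sequence, and capitals mark the gamma-activated site letters TTCNNNGAA, a palindromic motif to which STAT dimers can bind. Il1f9 at chr2:24186226-24186475, plus strand, Il31ra at chr13:112580663-112580912, minus strand, Il18rap at chr1:40515112-40515361, plus strand, and Il2rg at chrX:101268256-101268505, minus strand, each 5′ to 3′ on the gene's own strand, read:
Il1f9: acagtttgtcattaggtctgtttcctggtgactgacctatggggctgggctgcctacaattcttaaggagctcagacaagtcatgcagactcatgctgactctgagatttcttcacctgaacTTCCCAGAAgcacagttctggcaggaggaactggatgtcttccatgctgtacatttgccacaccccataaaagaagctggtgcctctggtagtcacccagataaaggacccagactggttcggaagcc
Il31ra: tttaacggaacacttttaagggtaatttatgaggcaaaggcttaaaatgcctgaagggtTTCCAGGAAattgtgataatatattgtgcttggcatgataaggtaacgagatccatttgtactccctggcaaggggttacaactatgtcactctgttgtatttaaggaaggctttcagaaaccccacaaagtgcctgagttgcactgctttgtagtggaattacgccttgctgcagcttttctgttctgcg
Il18rap: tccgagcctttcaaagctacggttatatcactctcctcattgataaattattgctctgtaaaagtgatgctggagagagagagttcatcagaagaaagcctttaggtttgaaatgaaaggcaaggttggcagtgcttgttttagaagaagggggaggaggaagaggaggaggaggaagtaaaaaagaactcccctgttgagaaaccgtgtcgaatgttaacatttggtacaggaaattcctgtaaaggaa
Il2rg: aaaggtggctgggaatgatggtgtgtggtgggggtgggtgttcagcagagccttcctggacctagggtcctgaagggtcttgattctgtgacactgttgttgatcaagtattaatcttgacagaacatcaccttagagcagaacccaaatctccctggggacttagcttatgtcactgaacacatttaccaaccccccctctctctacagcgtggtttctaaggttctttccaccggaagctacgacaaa

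The gamma-activated site letters stood 128 to 120 bases before the start of Il1f9 and 191 to 183 before that of Il31ra. They were found in 4 of the 42 member genes (Il1bos, Il1f9, Il31ra and Il7r), 4 of 48 windows, and in 7.02% of the 32851 windows of all genes. The interferon-stimulated response element letters GAAANNGAAA, searched on both strands, were in 1 member gene (Il4) and 2.98% of all windows. Neither set of letters was in the windows of Il18rap and Il2rg, nor in those of Il13ra1, Il1rap and Il6ra, which also fell after cells in tumor-bearing mice. Il17ra, which fell there too, had no window to search, nor did Il10, Il10ra, Il15 and Il2rb, which rose after cells in naive mice. A match is a description of letters and says nothing about binding.

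The IL-6 group signals through gp130. Il6ra (chromosome 3, 89869324 to 89913196, minus strand), the IL-6 binding chain, was at 44.4, 46.2, 45.0 and 50.3 RPM in naive untreated, 45.6, 50.3, 50.2 and 59.7 RPM in naive GEMy, 77.6, 71.5, 92.4 and 83.4 RPM in tumor untreated and 62.5, 60.8, 51.8 and 65.7 RPM in tumor GEMy lungs. Untreated tumor lungs lay above the other 3 groups. The gene rose 1.75-fold with a tumor (log2 fold change 0.79, SE 0.10, adjusted p = 7.25e-06) and fell 1.35-fold after cells in tumor-bearing mice (log2 fold change -0.43, SE 0.10, adjusted p = 0.0126), a call lost in a fit of the 8 compared lungs (0.0702). The interaction was -0.57 (adjusted p = 0.0203) and was lost without naive untreated replicate 1 (0.0516) or tumor untreated replicate 3 (0.0509).

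Il6 itself was rare, at 0.143, 0.0341, 0.0703 and 0.303 RPM in naive untreated, 0.202, 0.276, 0.211 and 0.0963 RPM in naive GEMy, 0.603, 0.389, 0.145 and 0.894 RPM in tumor untreated and 0.380, 0.467, 0.545 and 0.329 RPM in tumor GEMy lungs. Tumor untreated lungs spread widely and overlapped the naive ones. The rise with a tumor, 3.69-fold in mean RPM from 16 to 65 reads (log2 0.62, adjusted p = 0.0145), was lost without tumor untreated replicate 4 (0.0627) and with hemoglobin as a covariate (0.0578). Il6st was not called, and its means were 596, 568, 519 and 582 RPM in naive untreated, naive GEMy, tumor untreated and tumor GEMy lungs. Its change of -0.20 with a tumor missed the threshold (adjusted p = 0.0525) and passed without naive untreated replicate 3, naive GEMy replicate 1, tumor untreated replicate 1 or 2, or tumor GEMy replicate 4 (adjusted p = 0.0476, 0.0463, 0.0394, 0.0444 and 0.0472).

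Il31ra (chromosome 13, 112522807 to 112580662, minus strand), which forms the IL-31 receptor with the oncostatin M receptor, was at 0.358, 0.205, 0.528 and 0.639 RPM in naive untreated and 0.0672, 0.430, 0.211 and 0.481 RPM in naive GEMy lungs. It was at 0.724, 1.30, 1.09 and 0.555 RPM in tumor untreated and 0.0815, 0.200, 0.242 and 0.460 RPM in tumor GEMy lungs, and these 2 groups did not overlap. The gene fell 3.72-fold after cells in tumor-bearing mice, from 112 to 31 reads (log2 fold change -0.92, SE 0.21, adjusted p = 0.0145), which was lost without tumor untreated replicate 2 (0.0568). The rise with a tumor, with overlapping groups (log2 0.60, adjusted p = 0.0327), was lost without naive untreated replicate 1 or 2 or tumor untreated replicate 2 or 3 (adjusted p = 0.0741 to 0.111). This rise was also lost with an added 0.1 RPM (0.0777) and in a limma voom fit of read numbers (0.0785). Of the other IL-6 group genes, Il11ra1 fell with a tumor from 56.8 ± 3.30 to 44.1 ± 7.82 RPM (log2 -0.38, adjusted p = 0.00823). Il11ra1 has a near copy, Il11ra2, and how reads were divided between them is uncertain. Il11, Il11ra2 and Il27ra were not called.

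The receptors for IL-4 and IL-13, cytokines of allergic and wound responses, pair Il4ra with Il2rg or with Il13ra1. Il13ra1 (chromosome X, 36112108 to 36171261, plus strand) was at 77.4, 72.9, 81.5 and 61.6 RPM in naive untreated, 69.0, 71.5, 78.0 and 80.6 RPM in naive GEMy, 121, 124, 139 and 156 RPM in tumor untreated and 85.2, 92.8, 94.2 and 109 RPM in tumor GEMy lungs. Untreated tumor lungs again stood above all others, and tumor lungs with cells above naive ones. The gene rose 1.84-fold with a tumor (log2 fold change 0.87, SE 0.10, adjusted p = 4.97e-06) and fell 1.41-fold after cells in tumor-bearing mice (log2 fold change -0.49, SE 0.10, adjusted p = 0.00734), and both calls held in every recomputation. Its change after cells in naive mice was 0.03 (adjusted p = 0.910). The interaction (-0.53, adjusted p = 0.0438) was lost in 14 of 27 recomputations, among them without naive untreated replicate 1, 2 or 4, any naive GEMy replicate, tumor untreated replicate 3 or 4, or tumor GEMy replicate 1, 2 or 3 (adjusted p = 0.0502 to 0.101). Between groups with cells, the rise with a tumor of 0.35 (adjusted p = 0.0399) was lost without naive untreated replicate 2, naive GEMy replicate 1, 2 or 3, or tumor GEMy replicate 2, 3 or 4 (adjusted p = 0.0538 to 0.118) and with hemoglobin as a covariate (0.289).

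Il4ra (chromosome 7, 125552271 to 125579474, plus strand) was at 191, 203, 180.0 and 233 RPM in naive untreated, 263, 248, 209 and 255 RPM in naive GEMy, 319, 294, 332 and 317 RPM in tumor untreated and 382, 318, 283 and 278 RPM in tumor GEMy lungs. Naive and tumor-bearing lungs did not overlap within either treatment. The tumor raised it 1.56-fold in untreated mice (log2 0.65, adjusted p = 0.000148) and 1.29-fold in mice with cells (log2 0.36, adjusted p = 0.0369). The second call was lost without naive untreated replicate 2, any naive GEMy replicate, or tumor GEMy replicate 1 or 2 (adjusted p = 0.0501 to 0.117) and with hemoglobin as a covariate (0.362). In tumor-bearing mice the difference after cells was -0.01 (adjusted p = 0.972).

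The ligands of these receptors stayed near 0. Il13 had 1, 6, 5 and 18 reads over the 4 libraries of naive untreated, naive GEMy, tumor untreated and tumor GEMy lungs, and Il4 had 7, 9, 23 and 14. Il13 was at 0.0272, 0.133, 0.242 and 0.164 RPM in tumor lungs with cells, where each library held at least 1 read, and at 0 in 3 of the 4 untreated tumor lungs. Its change after cells in tumor-bearing mice did not pass (0.25, adjusted p = 0.294). Il5 and Il5ra were not called, and Il5ra passed for the tumor in untreated mice without tumor untreated replicate 4 (0.0301) and among lungs with cells without tumor GEMy replicate 4 (0.0495). Il3ra, which takes up the IL-3 of mast cell and basophil growth, rose from 12.0 ± 0.671 RPM in naive untreated to 17.8 ± 2.67 RPM in naive GEMy (log2 0.54, adjusted p = 0.0271) and 16.0 ± 2.38 RPM in tumor untreated lungs (log2 0.40, adjusted p = 0.0349). Leaving out naive untreated replicate 1, 2 or 3 lost both calls, as did naive GEMy replicate 1 or 2 the first (adjusted p = 0.0676 to 0.107) and tumor untreated replicate 2 or 3 the second (0.0632 to 0.106). Both were also lost with hemoglobin as a covariate (0.0655 and 0.0697).

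Receptors of the IL-17 family split. Il17ra (chromosome 6, 120463197 to 120483727, plus strand), the chain shared by most of the family and abundant in leukocytes, was at 59.2, 73.9, 76.4 and 72.0 RPM in naive untreated, 90.7, 87.5, 79.9 and 108 RPM in naive GEMy, 124, 143, 179.6 and 195 RPM in tumor untreated and 115, 107, 87.0 and 131 RPM in tumor GEMy lungs. Each untreated tumor lung exceeded each naive lung, and tumor lungs with cells overlapped their neighbours. The rise with a tumor was 2.28-fold (log2 fold change 1.17, SE 0.14, adjusted p = 9.20e-06). After cells in naive mice Il17ra was 1.30-fold higher without overlap, which did not pass (log2 0.38, adjusted p = 0.150). That change passed in a fit of the 8 compared lungs (adjusted p = 0.0296). The fall of 1.46-fold after cells in tumor-bearing mice (log2 -0.53, adjusted p = 0.0363) was lost without naive GEMy replicate 1, tumor untreated replicate 2, 3 or 4, or tumor GEMy replicate 1, 2 or 3 (adjusted p = 0.0504 to 0.117) and in a fit of the 8 compared lungs (0.140). Hemoglobin as a covariate (0.0625), median-of-ratios scaling (0.0595) and limma without trend and robust moderation (0.0530) lost it too. The interaction of -0.91 (SE 0.20, adjusted p = 0.0137) held in every recomputation.

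Il17re and Il17rd fell with a tumor. Il17re (chromosome 6, 113458771 to 113470758, plus strand), part of the IL-17C receptor, was at 26.1, 28.3, 24.9 and 28.7 RPM in naive untreated and 19.8, 18.6, 18.5 and 12.6 RPM in tumor untreated lungs and fell 1.56-fold (log2 -0.64, adjusted p = 0.00283). Il17rd (chromosome 14, 27039001 to 27107286, plus strand), known as an inhibitor of fibroblast growth factor signalling, was at 65.7, 72.2, 75.7 and 77.8 RPM in naive untreated and 60.5, 49.8, 47.2 and 40.0 RPM in tumor untreated lungs and fell 1.48-fold (log2 -0.57, adjusted p = 0.000769). Neither pair of groups overlapped, and both calls held in every recomputation. After cells, Il17rd was at 60.1 ± 5.80 RPM in naive and 55.6 ± 6.08 RPM in tumor-bearing mice, and Il17re at 24.9 ± 4.70 and 18.7 ± 2.65 RPM, with no call for either gene. The interaction of Il17rd passed without tumor untreated replicate 1 (0.0156), and the tumor difference of Il17re among lungs with cells without naive GEMy replicate 4 (0.0233) or tumor untreated replicate 4 (0.0424). Il17rc, which pairs with Il17ra, was at 20.8 ± 1.94, 24.1 ± 1.84, 17.4 ± 2.93 and 22.2 ± 2.56 RPM in naive untreated, naive GEMy, tumor untreated and tumor GEMy lungs and was not called. Without tumor untreated replicate 1 it fell with a tumor (-0.34, adjusted p = 0.0250) and rose after cells in tumor-bearing mice (0.43, adjusted p = 0.0331), the second also without tumor GEMy replicate 4 (0.0428). Il17rb was not called. The ligand Il17d (2.03 RPM in naive untreated lungs) was not called, and Il17b, Il17c and Il17f had 15, 28 and 10 reads over the 16 lungs.

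Myeloid markers moved with Il17ra, Il6ra, Il13ra1, Il1rap and Il10ra in untreated mice with a tumor, and in other comparisons only in part. Of 10 neutrophil markers 8 rose with a tumor and 2 fell after cells in tumor-bearing mice, and their sum was 267 to 397 RPM in naive untreated, 224 to 405 in naive GEMy, 3084 to 5120 in tumor untreated and 1595 to 5044 in tumor GEMy lungs. Of 8 monocyte and macrophage markers 8 rose with a tumor and 5 after cells in naive mice, with sums of 376 to 435, 610 to 804, 753 to 1305 and 720.5 to 1061 RPM in that order, and 6 had a negative interaction. In naive mice given cells, where those 5 rose, Il10ra was the only 1 of these receptor genes called. Among lungs with cells, 8 of 10 neutrophil markers (median log2 3.03) and 2 of 8 monocyte and macrophage markers were higher with a tumor, whereas of the 5 receptor genes Il13ra1 was called and Il17ra (0.26), Il6ra (0.23), Il1rap (0.51) and Il10ra (-0.20) were not. Markers of lung structure moved with Il17re, Il17rd and Il22ra1 in untreated mice with a tumor, where 23.2% of all tested genes fell. There 3 of 6 alveolar epithelial, 5 of 6 fibroblast and smooth muscle and 3 of 6 endothelial markers fell. The epithelial sums were 25169 to 27704 RPM in naive untreated and 17200 to 21892 in tumor untreated lungs. Among lungs with cells 0 of 6 alveolar epithelial, 1 of 6 fibroblast and smooth muscle and 2 of 6 endothelial markers fell with a tumor (5.68% of all genes). Those 3 receptor genes had no call there. No marker of the 3 lists had an interaction past the threshold, where Il22ra1 did (0.57). No marker of these lists was at 0 throughout a lung group. Of 8 B cell markers 7 fell with a tumor, of 6 alveolar macrophage markers 0 passed, of 5 group 2 innate lymphoid markers 1 rose and 1 fell, and of 5 erythroid markers 0 passed. Of 10 mast cell, basophil and eosinophil markers 4 rose with a tumor in untreated mice (13.6% of all tested genes). In that list 1 rose after cells in naive mice (4.53%) and 5 with a tumor among lungs with cells (3.48%). Their part in the receptor changes was not tested.

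The remaining members are interleukins by symbol. Il34 (chromosome 8, 110741829 to 110805924, minus strand) was at 16.6, 14.6, 14.0 and 16.1 RPM in naive untreated and 15.8, 11.2, 11.9 and 10.1 RPM in tumor untreated lungs, groups that overlap, and fell 1.25-fold (log2 -0.33, adjusted p = 0.0279). The call was lost without naive untreated replicate 1 or 4 or tumor untreated replicate 2, 3 or 4 (adjusted p = 0.0570 to 0.106) and under another scaling (0.0952). A fit of the 8 compared lungs (0.0739) and hemoglobin as a covariate (0.113) lost it too. With cells the difference between tumor and naive lungs of -0.32 missed the threshold (adjusted p = 0.0760) and passed without tumor untreated replicate 1 (0.0222) or 4 (0.0442). Il16 (chromosome 7, 83642819 to 83735539, minus strand) was at 62.3 ± 10.1, 63.0 ± 4.17, 77.0 ± 8.81 and 67.1 ± 13.3 RPM in naive untreated, naive GEMy, tumor untreated and tumor GEMy lungs. Its change with a tumor (0.31, adjusted p = 0.0723) passed without naive untreated replicate 4 (0.0364), tumor untreated replicate 2 (0.0488) or tumor GEMy replicate 4 (0.0434).

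Il4i1 (chromosome 7, 44836288 to 44840809, plus strand), an oxidase that breaks down phenylalanine and other amino acids, was at 6.18, 7.39, 6.10 and 9.35 RPM in naive untreated and 5.57, 4.02, 5.80 and 4.83 RPM in tumor untreated lungs and fell 1.44-fold (log2 -0.47, adjusted p = 0.0181). The fall was lost without naive untreated replicate 4 (0.0731) or tumor untreated replicate 2 (0.0644), under median-of-ratios scaling (0.0518) and with hemoglobin as a covariate (0.0855). Its span overlaps that of Il4i1b, which was not called, so how reads were divided between them is uncertain. Il1bos, an RNA antisense to Il1b, had 19, 19, 48 and 25 reads over naive untreated, naive GEMy, tumor untreated and tumor GEMy lungs and rose with a tumor (log2 0.43, adjusted p = 0.0362). It did not pass without naive untreated replicate 2 or 4 or tumor untreated replicate 2, 3 or 4 (adjusted p = 0.0531 to 0.125). Il1bos also did not pass with hemoglobin as a covariate (0.172), with an added 0.1 RPM (0.0512) or in a limma voom fit of read numbers (0.0559). Whether reads were counted by strand is not given in the sources used here, so reads of Il1b itself cannot be told apart from it. Il23r was not called.

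Kinases, STAT factors and inhibitors downstream of these receptors were read from a list of 38 genes, all tested. With a tumor 19 rose and 6 fell (13.6% and 23.2% of all tested genes). After cells 9 rose in naive mice (4.53%), and 3 rose and 2 fell in tumor-bearing mice (2.22% and 2.57%). Among lungs with cells 4 rose with a tumor (3.48%), and 6 had a negative interaction (3.37%). The list's median log2 fold change was 0.23 with a tumor and 0.15 after cells in naive mice, against -0.08 and -0.03 for all genes. It was -0.04 after cells in tumor-bearing mice, 0.03 with a tumor among lungs with cells and -0.20 for the interaction. The medians of all genes were -0.02, -0.06 and 0.01 in that order. Stat3, which carries IL-6 and IL-10 signals, rose after cells in naive mice (from 229.9 ± 8.06 to 324 ± 25.8 RPM, log2 0.49) and with a tumor (log2 0.50). The feedback inhibitor Socs1 rose after cells in naive mice (from 2.50 ± 0.522 to 14.7 ± 1.57 RPM, log2 2.35, adjusted p = 5.09e-05) and in tumor-bearing mice (log2 1.52, adjusted p = 0.00582). Socs3, induced by IL-6 among others, rose with a tumor (from 54.2 ± 4.80 to 136 ± 19.4 RPM, log2 1.31) and fell after cells in tumor-bearing mice (log2 -0.55, adjusted p = 0.00574). Jak3, the kinase bound to the gamma chain, rose with a tumor (log2 0.71) and after cells in naive mice (log2 0.44), with an interaction of -0.55 (adjusted p = 0.0169). Csf2rb, the beta chain that pairs with Il3ra and Il5ra, rose with a tumor (from 55.9 ± 4.16 to 227 ± 42.9 RPM, log2 2.00).

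The responses to IL12-GEMy in naive and tumor-bearing mice are set side by side here for Il10 and the 7 members with an interaction. Il10 rose in both, with no interaction past the threshold on the log2 scale. By ratio of mean RPM its rise was 29.5-fold in naive and 8.42-fold in tumor-bearing mice. The log2 scale understates changes from levels as low as its naive untreated mean of 0.0516 RPM. Whether Il10 responded equally with and without a tumor therefore cannot be told from the interaction. Il10ra, Il18rap and Il2rb rose in naive mice, and their change in tumor-bearing mice was smaller or of the opposite sign, by interactions of -1.35, -1.32 and -1.01. Il17ra, Il6ra and Il13ra1 differed by 0.38, 0.14 and 0.03 in naive mice, none of which passed, and fell in tumor-bearing mice. For Il17ra the naive lungs with and without cells did not overlap, and the change passed in a fit of those lungs alone (adjusted p = 0.0296). Il22ra1 differed by -0.30 in naive and 0.27 in tumor-bearing mice, neither of which passed. Fits without single libraries moved the number of members with an interaction between 3 (without naive untreated replicate 1 or tumor untreated replicate 3) and 11 (without tumor untreated replicate 1). It was 4 without naive untreated replicate 2 or naive GEMy replicate 4. The number called after cells in tumor-bearing mice was 4 without tumor GEMy replicate 2 or 3 and 5 without tumor untreated replicate 2.

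**Figure D3:**
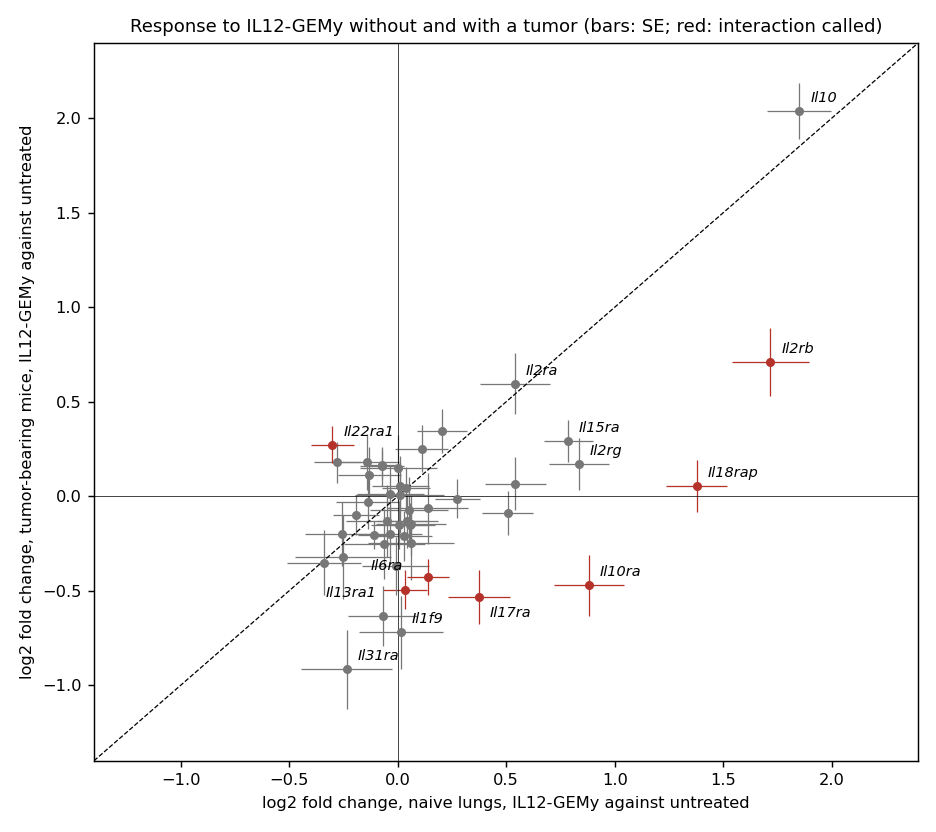
Each of the 47 tested members by its log2 fold change after IL12-GEMy in naive mice (horizontal) and in tumor-bearing mice (vertical), with bars of 1 SE and red points for the 7 with an interaction past the threshold. On the dashed line the 2 changes are equal. Il10 lies near it at 1.85 and 2.04, and Il2rb, Il18rap and Il10ra lie below it. The place of Il10 depends on the RPM added before logs, since its untreated levels were low. Its ratios of mean RPM were 29.5 in naive and 8.42 in tumor-bearing mice.

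The cell product was a single library, so its levels are given with exact 95% Poisson intervals for counting error and without a test. Its highest members per length were Il2rg (66.3 FPKM), Il4ra (27.8) and Il6st (9.71). In RPM, 12 members were above all 16 lungs, 18 below and 24 within their range, where 34.35% of all genes were above, 41.05% below and 24.6% within. Il4ra was at 757 RPM (interval 748 to 767), against 180.0 to 382 in lungs. Il2rg was at 257 RPM (lungs 73.1 to 186), Il18rap at 121 (14.6 to 85.7), Il21r at 106 (12.7 to 28.5), Il6ra at 101 (44.4 to 92.4), Il16 at 101 (48.9 to 85.0) and Il7r at 60.0 (11.0 to 29.4). Il6 was also above every lung, at 1.80 RPM (interval 1.36 to 2.34) from 56 reads.

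Il10 in the product was at 0.289 RPM (interval 0.132 to 0.549) from 9 reads, below each lung that had received the cells (1.01 to 3.96 RPM). Il2rb was at 3.09 RPM (interval 2.50 to 3.77), below every lung, while Il10ra (86.1 RPM), Il17ra (133), Il13ra1 (66.6) and Il1rap (26.8) were within the range of lungs. Several receptor genes had fewer than 10 reads in it: Il17rd was at 0.0643 RPM (interval 0.00779 to 0.232), Il17re at 0.257 (0.111 to 0.507) and Il17rc at 0.161 (0.0522 to 0.375). Il34 was at 0.0964 RPM (0.0199 to 0.282), and Il22ra1 had 0 reads (interval 0 to 0.119 RPM). Markers of mast cells, basophils and eosinophils summed to 536 RPM in the product and 17.6 to 42.0 RPM in lungs, neutrophil markers to 2050.5 RPM and NK markers to 42.3 RPM in the product. What share of any lung value came from the injected cells was not tested.

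**Figure D4:**
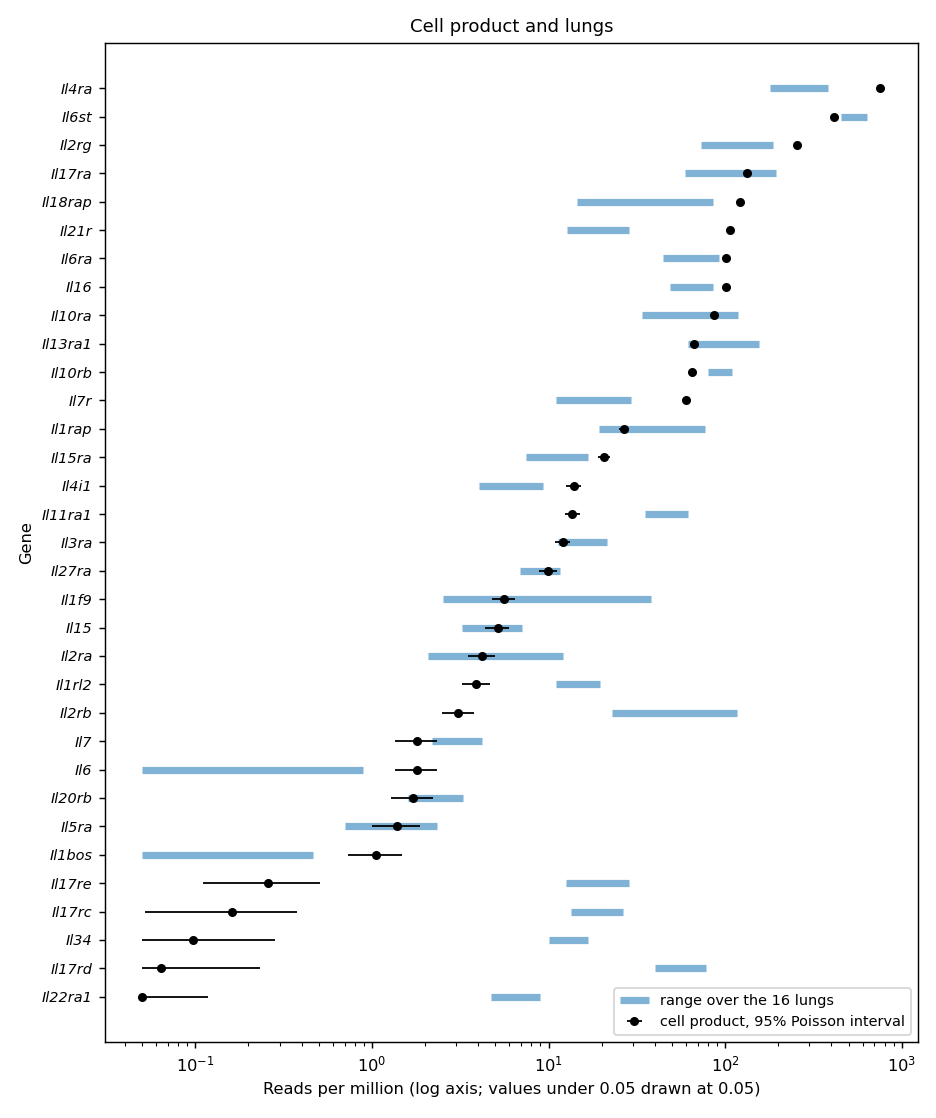
Members at 1 RPM or more in the cell product or 5 RPM or more in a lung, on a log axis of RPM. Black points are the product with its exact 95% Poisson interval, blue bars are the range over the 16 lungs, and values under 0.05 RPM are drawn at 0.05. Il4ra, at 757 RPM, lies to the right of its bar, and Il2rb, Il34, Il17rd and Il22ra1 lie to the left of theirs.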

How the data were processed

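RNA of 16 lungs (4 groups of 4) and 1 cell product was sequenced. Values were deposited by the authors as FPKM, 1 column per library, per kilobase of the genomic span listed for each gene. STAR 2.7.3a, Partek and the build mm10 are named per the submitters' processing notes, and annotation and strand setting are not given in the sources used here. FPKM times span in kilobases gave reads per 1000000 (RPM), the sum of each library, and the smallest steps of RPM gave whole reads (within 0.02 for 86.6 to 88.5% of the values below 1000 reads). Totals were 27566855 to 36815077 reads per lung, so 1 read is about 0.0272 to 0.0363 RPM. Intervals and floors (3 reads) cover counting error only.

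Groups were taken from the sample labels. Tests used limma 3.58.1 in R 4.3.3 on log2(RPM + 0.5), for genes at 0.1 RPM or more in at least 4 lungs, with 4 group means, trend and robust moderation, 2-sided, Benjamini-Hochberg adjusted over 17192 genes. The code was tested on simulated data. Alternatives were 12 other settings and leaving out each of 16 lungs. Members with library values were the 6 largest rises and 4 largest falls called per comparison, the 3 largest interactions and a fixed set of 21 genes. Members, marker lists, signalling list and tests were chosen with earlier results of these data known. The values of 1 gene of the signalling list are not reported here.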

Additional observations from a re-analysis of the deposited data

Results flagged for a closer look

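Among 27 genes in 4 lung groups (108 sets of 4 libraries), 8 sets had a library whose gap to the nearest other as a share of the range exceeded Dixon's 95% critical value, which chance gives in about 1 of 20 sets of normal values. That rate does not apply to the Il13 sets below, where the other libraries were at 0 and the share is 1 whatever the highest value. The library in question was the highest for Il13 in naive untreated replicate 1 (0.0358 RPM, the others 0) and tumor untreated replicate 4 (0.154, the others 0). It was the highest for Il1rap in naive untreated replicate 3 (26.3 RPM, the others 22.7 to 23.2) and tumor untreated replicate 4 (76.5, the others 43.3 to 44.9). It was the lowest for Il15ra in naive GEMy replicate 2 (12.7 RPM, the others 15.9 to 16.4), Il6st in naive GEMy replicate 1 (514 RPM, the others 579.8 to 591), Il22ra1 in tumor GEMy replicate 4 (6.41 RPM, the others 6.84 to 6.93) and Il2ra in tumor GEMy replicate 4 (8.84 RPM, the others 11.8 to 12.0).

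The change after IL12-GEMy differed between tumor-bearing and naive mice, by the limma interaction term, for 7 members. The interaction was -1.35 for Il10ra (adjusted p = 0.00284), -1.32 for Il18rap (0.00125), -1.01 for Il2rb (0.0298), -0.91 for Il17ra (0.0137), -0.57 for Il6ra (0.0203), -0.53 for Il13ra1 (0.0438) and 0.57 for Il22ra1 (0.0234).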

How the results depend on the processing

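Of 55 calls of members, 30 were kept under all 28 alternatives in which they could be computed: 17 of 25 with a tumor in untreated mice, 6 of 8 after cells in naive mice, 2 of 9 after cells in tumor-bearing mice, 2 of 6 with a tumor among lungs with cells and 3 of 7 interactions. No call reversed, and 207 of 6353 recomputed values changed sign while uncalled. With hemoglobin as a covariate, 4213 genes passed with a tumor in untreated mice (6326 without it), and among lungs with cells 170 genes (1575) and 2 members (6). Fits of the compared groups alone gave 1688 genes after cells in naive mice (1016 in the fit of all lungs), and after cells in tumor-bearing mice 241 genes (824) and 3 members (9). On the FPKM scale 16 members passed with a tumor in untreated mice (25 on the RPM scale), where 23 were tested. Apart from the smaller number tested, the cause was not tested. The interaction has no fit of compared groups alone.

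Leaving out 1 lung gave 4726 to 7189 genes and 21 to 27 members with a tumor in untreated mice, 645 to 1342 and 6 to 9 after cells in naive mice, 480 to 1129 and 4 to 10 after cells in tumor-bearing mice, 758 to 2215 and 4 to 9 with a tumor among lungs with cells, and 480 to 1550 and 3 to 11 for the interaction (721 and 7 with all lungs). Counts moved over 1.5 times after cells in naive mice without naive untreated replicate 2 (673 genes) or naive GEMy replicate 4 (645), and in tumor-bearing mice without tumor GEMy replicate 2 (480). They did so among lungs with cells without naive GEMy replicate 1 (758), 2 (852) or 3 (921) or tumor GEMy replicate 1 (924) or 2 (997), and for the interaction without naive untreated replicate 1 (480) or tumor untreated replicate 1 (1550).

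With the replicate block, 6749 genes and 27 members passed with a tumor in untreated mice, 1189 and 9 after cells in naive mice, 1051 and 10 after cells in tumor-bearing mice, 1927 and 8 with a tumor among lungs with cells, and 978 and 10 for the interaction. Lungs with the same number correlated by -0.217 to 0.453 in their deviations from group means (median 0.0802, over 0.1 in 11 of 24 pairs), and a lung correlated best with its own number in 17 of 48 cases, against a median of -0.0254 and 18 of 72 pairs over 0.1 for lungs with different numbers. In the running numbers of the sample descriptions, lungs with the same replicate number are consecutive and come from each group. What that order marks is not stated, and the labels tie the numbers to no shared litter or day. The numbers were not used to pair lungs in the main fit. The correlations do not decide whether they should be, so the block is given as an alternative. The block added calls of Il10ra after cells in tumor-bearing mice (0.0160), Il2ra after cells in naive mice (0.0498), Il16 (0.0335) and Il9r (0.0432) with a tumor in untreated mice, Il17re (0.0475) and Il1rap (0.0354) among lungs with cells, and the interactions of Il15 (0.0455), Il1f9 (0.0429) and Il2rg (0.0393), as limma adjusted p, and lost none. Genes with few reads, such as Il2, Il21, Il24 and Il13, were limited by depth.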
